A study of Mus musculus with 9 samples.

Results

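The insulin-like growth factor (IGF) system was described in C2C12 cells, a mouse myoblast line, through 10 genes of the 54307 in the expression profile: the ligands Igf1 and Igf2, the receptor Igf1r, the binding proteins Igfbp2, Igfbp3, Igfbp4, Igfbp5 and Igfbp6, and the adaptors Irs1 and Irs2. They were taken by gene symbol, and each of the 10 matched 1 Ensembl identifier. The control group (NC), whose glucose concentration is not stated in the labels, the H group (25 mmol/L glucose) and the HL group (the same glucose plus 200 nmol/L liraglutide) had 3 libraries each, and every treatment lasted 48 h. Liraglutide is an analogue of glucagon-like peptide-1. All libraries came from 1 purchased cell line, and no mannitol sample was analysed here, so glucose and osmolarity cannot be told apart in the H and HL groups. The study's methods speak in general of independent repeats and of a design with 3 biological repeats, but do not say whether the sequenced libraries of 1 group are separate cultures. If they are not, a p-value here covers only a spread that may be technical.

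IGF1 and IGF2 are secreted ligands that act through the type 1 IGF receptor, a tyrosine kinase that recruits the adaptors IRS1 and IRS2 and so reaches the PI3K-AKT and RAS pathways. The binding proteins hold the ligands outside the cell and can lower or raise their access to the receptor, and some also act without the ligands. In skeletal muscle the system is known for its part in myoblast proliferation, myotube formation and fibre growth, and C2C12 cells themselves release binding proteins.

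The values are FPKM, that is, fragments scaled to exon length and to the mapped reads of the library, so levels may be compared between genes per length. Fold changes are on the log2(FPKM + 0.1) scale and understate the changes of genes near 0. Of the 10 genes, 8 passed the filter of at least 1 FPKM in at least 3 libraries, as did 13674 genes in all. A gene is written as rising or falling at a limma adjusted p under 0.05, and as called when the absolute log2 fold change also exceeded 1. The estimated depth was 17.4 to 23.0 M fragments per library, which put 1938 to 9154 fragments on Irs1, 588 to 3263 on Irs2 and 2251 to 4900 on Igfbp6. The sum of all FPKM ran between 757000 and 765681 in NC, 649733 and 683362 in H, and 698627 and 731929 in HL, and mitochondrial transcripts made up 6.48% to 7.28%, 7.24% to 9.47% and 9.19% to 11.4% of it. Replicates of H lay farther apart than the others, with a median absolute deviation from the group mean of 0.0849 to 0.132 per library on the log2 scale against 0.0474 to 0.0614 in NC and HL. Of 10 myoblast markers, 8 were at 1 FPKM or more in every library of each group, with Myod1 and Des among them, while Pax7 stayed below 1.

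The largest changes lay in the adaptors and in 4 of the binding proteins, and they followed different orders over the groups. Irs1 rose from NC to H and again from H to HL, whereas Irs2 rose in H and fell back in part in HL. Igfbp3 and Igfbp6 were highest in H. Igfbp2 and Igfbp5, the most and the third most abundant in NC among the binding proteins listed above, were highest in HL. Both ligands stayed below 1 FPKM in all 9 libraries. In bulk RNA, a change in the number of cells that express a gene and a change in RNA per cell cannot be told apart.

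**Figure D1:**
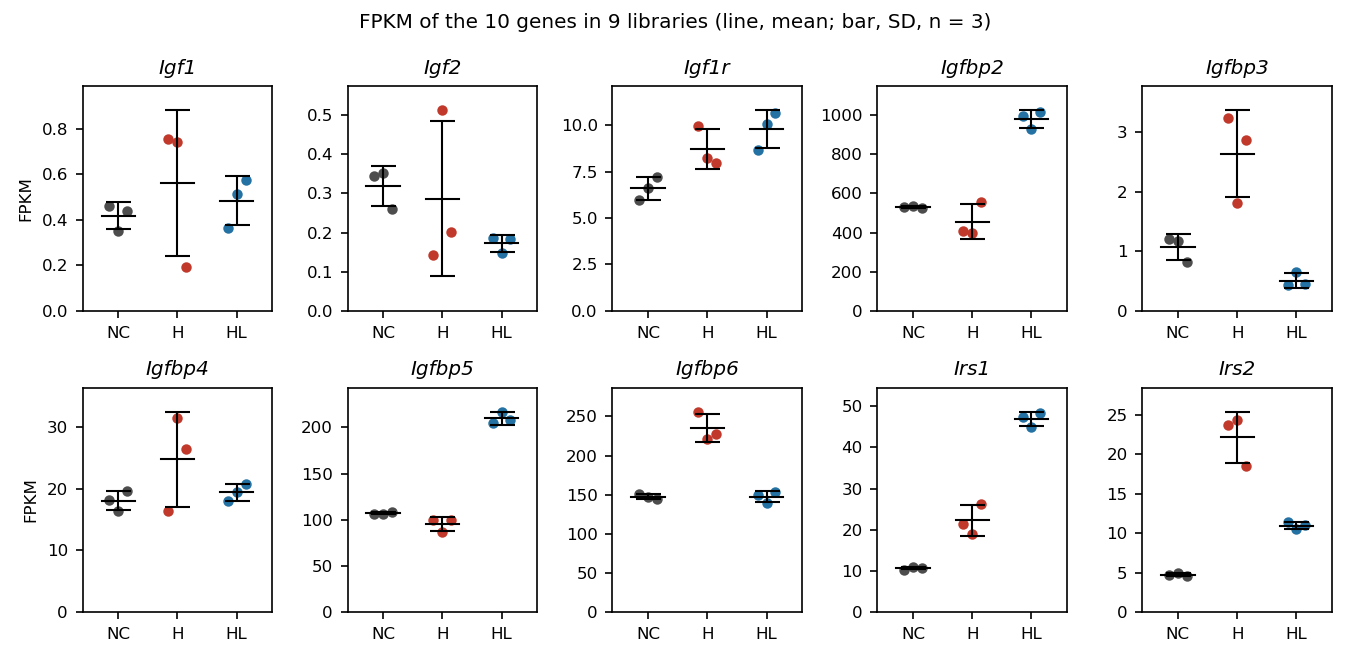
FPKM of each of the 10 genes (vertical axes, each starting at 0) in the NC, H and HL groups (horizontal axes), with 1 point per library, the mean as a line and the SD as a bar (n = 3). The groups of Irs1 and of Irs2 do not overlap, the 3 HL points of Igfbp2 and Igfbp5 lie above all others, and those of Igf1 and Igf2 stay below 1 FPKM.

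The upstream sequences of the adaptors and of the neighbouring genes Igfbp2 and Igfbp5 are shown because these genes carried most of the called changes and moved in pairs, either apart (Irs1 and Irs2 in HL) or together (Igfbp2 and Igfbp5). They are the 250 bases before the RefSeq start, from the build GRCm38.p6, each printed 5′ to 3′ on the gene's own strand, and all 10 genes had an entry. Capitals mark matches, on either strand, to CACGTG, the E-box bound by USF and MYC proteins, and to TGACG, the core of the cyclic AMP response element bound by CREB, which may overlap each other. No capital marks TGTTTAC, the FOXO site, since none of the 10 genes held it in these windows.
Irs1, chr1:82291440-82291689, minus strand: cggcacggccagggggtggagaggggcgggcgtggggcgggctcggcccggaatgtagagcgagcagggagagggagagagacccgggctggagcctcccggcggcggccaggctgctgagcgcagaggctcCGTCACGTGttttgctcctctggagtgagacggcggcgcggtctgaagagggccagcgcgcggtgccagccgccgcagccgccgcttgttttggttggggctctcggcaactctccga
Irs2, chr8:11008930-11009179, minus strand: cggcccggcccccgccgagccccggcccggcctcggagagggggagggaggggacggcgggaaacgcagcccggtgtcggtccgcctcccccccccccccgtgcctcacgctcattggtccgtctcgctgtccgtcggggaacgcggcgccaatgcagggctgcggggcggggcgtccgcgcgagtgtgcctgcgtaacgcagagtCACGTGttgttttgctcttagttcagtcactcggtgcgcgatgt
Igfbp2, first start, chr1:72824230-72824479, plus strand: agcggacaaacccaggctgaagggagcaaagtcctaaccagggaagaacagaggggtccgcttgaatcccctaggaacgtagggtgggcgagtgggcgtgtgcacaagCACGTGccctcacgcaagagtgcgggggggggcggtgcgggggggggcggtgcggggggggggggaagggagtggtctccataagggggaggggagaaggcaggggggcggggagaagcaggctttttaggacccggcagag
Igfbp5, chr1:72874866-72875115, minus strand: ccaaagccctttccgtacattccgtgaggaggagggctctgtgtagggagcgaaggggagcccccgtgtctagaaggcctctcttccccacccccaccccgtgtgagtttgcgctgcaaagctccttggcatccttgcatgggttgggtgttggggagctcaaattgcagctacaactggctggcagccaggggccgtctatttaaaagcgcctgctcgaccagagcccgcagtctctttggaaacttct
The E-box of Irs1 began 115 bases before the start and shared its first bases with a reverse match to the CREB core that began at 118, while the E-box of Irs2 began at 44. Igfbp2 held an E-box 142 bases before its first start. Its second start, not printed, and Igfbp5 held none of the 3 motifs. Among 32851 RefSeq promoters of the same length, 6.02% held the E-box, 17.8% the CREB core and 3.17% the FOXO site. These shares are not matched for base composition. G and C made up 72.4% of the window of Irs1, 72.8% of Irs2, 67.2% of Igfbp2 and 58.8% of Igfbp5, beside a median of 52.4% over all promoters. The motifs are matches of letters and do not show binding. In the RefSeq gene order Igfbp2 and Igfbp5 are next to each other on chromosome 1.

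Igf1 and Igf2 were low, above 0 but below 1 FPKM in all 9 libraries, and so did not pass the filter. The FPKM of Igf1 was 0.462, 0.351 and 0.440 in NC, 0.752, 0.739 and 0.192 in H, and 0.366, 0.514 and 0.572 in HL. The groups overlapped, and the H libraries spanned both the highest and the lowest value. Igf2 was at 0.345, 0.351 and 0.261 FPKM in NC, 0.144, 0.513 and 0.203 in H, and 0.187, 0.148 and 0.184 in HL. Here the HL libraries lay below those of NC and the H libraries spanned the rest. In a fit without the filter, neither ligand passed the test in H against NC (log2 fold changes 0.20 and -0.23, limma adjusted p = 0.758 and 0.669). HL against H gave -0.04 for Igf1 (95% interval -0.99 to 0.90) and -0.39 for Igf2 (-1.20 to 0.42). Changes within these intervals are not excluded. HL against NC gave 0.16 and -0.61 (limma adjusted p = 0.892 and 0.307).

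Igf1r, the receptor of both ligands, was at 5.99, 6.59 and 7.22 FPKM in NC, 9.95, 8.21 and 7.97 in H, and 8.66, 10.1 and 10.6 in HL. All H and HL libraries lay above those of NC, and H and HL overlapped. Compared with the NC group, Igf1r rose in H by 0.39 on the log2 scale (standard error 0.12, limma adjusted p = 0.0171) and in HL by 0.56 (standard error 0.12, limma adjusted p = 0.00394). The rise in H missed the threshold without NC replicate 1 (adjusted p = 0.0663) and without H replicate 1 (adjusted p = 0.0515). The difference between HL and H was 0.17 (95% interval -0.10 to 0.44, limma adjusted p = 0.267).

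Of the 5 binding proteins, Igfbp2 and Igfbp5 rose in HL against H, whereas Igfbp3 and Igfbp6 rose in the H group compared with NC and were lowered again in the HL group. Igfbp2, a binding protein with some preference for IGF2, was the most abundant of the 10 genes, above 98.4% of tested genes in NC. Its FPKM was 530, 536 and 526 in NC, 409, 396 and 557 in H, and 995, 930 and 1017 in HL. The HL libraries stood above all others, and H replicate 3 lay above the NC libraries while the other 2 H libraries lay below them. In HL against H the log2 fold change was 1.13 (standard error 0.11, limma adjusted p = 6.11e-05), a call, and in HL against NC it was 0.88 (limma adjusted p = 0.000253). H against NC gave -0.24 (limma adjusted p = 0.0889), and without H replicate 3 it gave -0.40 (limma adjusted p = 0.000289). Leaving out H replicate 1 or 2 instead gave -0.18 and -0.15 (limma adjusted p = 0.240 and 0.262). After rescaling to TPM it was -0.05 (limma adjusted p = 0.758).

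Igfbp5, which is secreted by C2C12 cells as they differentiate, was at 106, 107 and 109 FPKM in NC, 100.5, 87.0 and 99.5 in H, and 204, 217 and 208 in HL. The HL libraries were far above both other groups, and the spread within each group was small. The log2 fold change of HL against H was 1.14 (standard error 0.06, limma adjusted p = 2.8e-06), a call, and that of HL against NC was 0.97 (limma adjusted p = 8.54e-06), which became a call after rescaling to TPM (1.06). H against NC gave -0.17 (limma adjusted p = 0.0384), a difference that missed the threshold in 11 of 21 alternatives, was -0.10 without H replicate 2 (limma adjusted p = 0.0573) and took the opposite sign, 0.03, after rescaling to TPM (limma adjusted p = 0.742).

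Igfbp3, a main carrier of IGFs in blood, was near 1 FPKM, at 1.21, 1.18 and 0.827 in NC, 3.23, 1.82 and 2.87 in H, and 0.427, 0.648 and 0.454 in HL. The 3 groups did not overlap, and HL was the lowest. It passed the filter through the 3 H libraries and 2 of NC, and no HL library reached 1 FPKM. Igfbp3 rose in H by 1.20 on the log2 scale (standard error 0.27, limma adjusted p = 0.00394) and in HL changed by -2.15 against H (standard error 0.27, limma adjusted p = 0.000234), and both were calls. With a pseudocount of 1 the former was 0.80 and no longer a call, and the latter was -1.25 and still a call. HL against NC gave -0.94 (limma adjusted p = 0.0176), or -0.46 with a pseudocount of 1 (limma adjusted p = 0.0444), and leaving out NC replicate 1 or 2 or HL replicate 1 or 3 raised the adjusted p to between 0.0515 and 0.0613.

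Igfbp6, which prefers IGF2, was at 151, 147 and 145 FPKM in NC, 256, 221 and 228 in H, and 149, 140 and 153 in HL. The H libraries lay above all others, and NC and HL overlapped. It rose in H by 0.67 on the log2 scale (standard error 0.06, limma adjusted p = 1.86e-05) and changed by -0.67 in HL against H (standard error 0.06, limma adjusted p = 4.57e-05), so neither change reached the fold of a call. The means of HL and NC were 148 FPKM each, with a log2 difference of -0.00 (95% interval -0.14 to 0.14).

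Igfbp4, known mainly as an inhibitor of IGF action, was at 18.2, 16.5 and 19.5 FPKM in NC, 16.3, 31.5 and 26.4 in H, and 18.0, 19.5 and 20.7 in HL. The H libraries ranged from below NC to above HL. No comparison passed the test, with log2 fold changes of 0.40 in H against NC (limma adjusted p = 0.112), -0.30 in HL against H (limma adjusted p = 0.247) and 0.10 in HL against NC (95% interval -0.35 to 0.56). Without H replicate 1 the first was 0.67 (limma adjusted p = 0.000737) and the second -0.57 (limma adjusted p = 0.00289). Leaving out H replicate 2 instead gave 0.20 and -0.10 (limma adjusted p = 0.352 and 0.660). With H replicate 3 left out they were 0.33 and -0.23 (limma adjusted p = 0.262 and 0.467).

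The 5 listed binding proteins, without Igfbp7 (245, 394 and 233 FPKM in NC, H and HL), together gave 805 ± 4.45 FPKM in NC, 813 ± 91.1 in H and 1358 ± 46.4 in HL (SD, n = 3 each). The sum was 1.68-fold higher in HL than in H, and in H against NC the groups overlapped (exact permutation test, two-sided, p = 1). With 3 libraries against 3, the smallest p that the exact permutation test allows is 0.1, which was reached in HL against H and in HL against NC. The make-up of the sum differed between all groups. Igfbp2 held 66.0% ± 0.369 of it in NC, 55.6% ± 4.72 in H and 72.2% ± 0.915 in HL. For Igfbp6 the share was 18.3% ± 0.331 in NC, 29.2% ± 3.90 in H and 10.9% ± 0.135 in HL. Igfbp5 held 13.3% ± 0.216, 11.8% ± 0.951 and 15.5% ± 0.982. No 2 groups overlapped in any of these shares (exact permutation test, two-sided, p = 0.1 each).

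**Figure D2:**
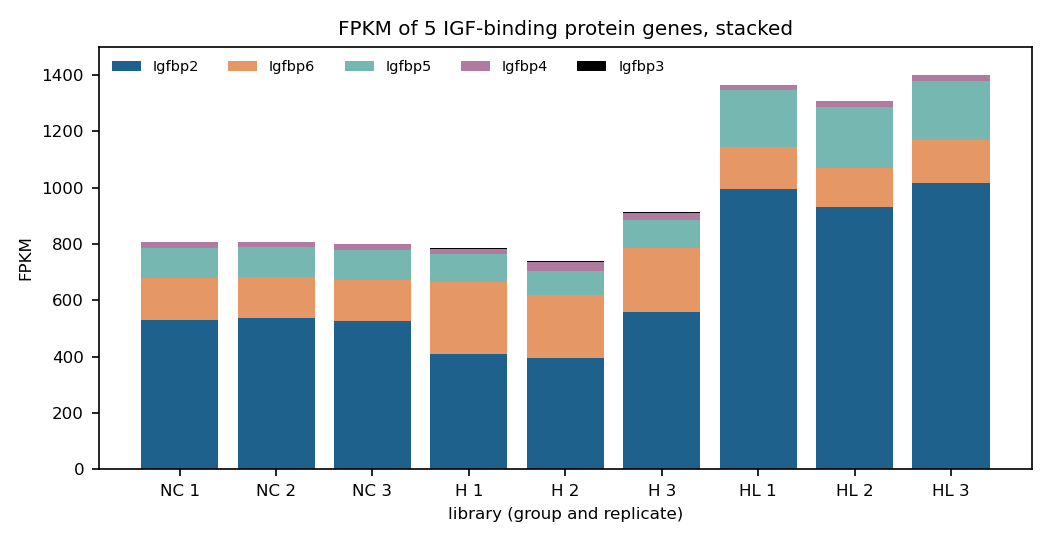
FPKM of the 5 binding proteins stacked for each of the 9 libraries (horizontal axis), with the vertical axis starting at 0. The 3 HL bars reach 1308 to 1400 FPKM and the others 738 to 914, and Igfbp6 takes its widest share in the H bars.

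Irs1 and Irs2 are related adaptors that carry signals from the insulin and IGF receptors. Compared with the NC group, both were called higher in H and in HL, but the order of H and HL was opposite. Irs1 was at 10.4, 10.9 and 10.9 FPKM in NC, 21.5, 19.1 and 26.3 in H, and 47.4, 45.0 and 48.4 in HL. Each group lay wholly above the one before. The log2 fold change was 1.04 in H against NC (standard error 0.10, limma adjusted p = 2.77e-05), 1.08 in HL against H (standard error 0.10, limma adjusted p = 5.12e-05) and 2.12 in HL against NC (standard error 0.10, limma adjusted p = 2.5e-06). The first fell short of a call with a pseudocount of 1 (0.98) and without H replicate 3 (0.91), and the second after rescaling to TPM (0.99) and without H replicate 2 (0.98), each with the direction kept.

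The level of Irs1 is uncertain in 1 respect. The span of Gm9747, a gene model on the other strand, overlaps that of Irs1 in the GENCODE annotation. Whether their exons share bases was not tested. The sources do not state whether strand was used, so reads from any shared bases cannot be told apart. Gm9747 was at 18.1, 16.2 and 17.4 FPKM in NC, 23.8, 23.2 and 21.9 in H, and 50.1, 55.7 and 47.0 in HL. It moved the same way as Irs1, by 0.41 on the log2 scale in H against NC (limma adjusted p = 0.00123) and by 1.14 in HL against H (limma adjusted p = 7.65e-06). With its fragments added to those of Irs1, the log2 fold change of Irs1 was 0.87 in H against NC (limma adjusted p = 1.51e-05), which is no longer a call, 1.10 in HL against H and 1.97 in HL against NC.

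Irs2 was at 4.76, 5.03 and 4.59 FPKM in NC, 23.7, 24.4 and 18.5 in H, and 11.5, 10.5 and 11.0 in HL. The H libraries stood highest, those of HL in the middle and those of NC lowest, with no overlap. It rose 4.63-fold in mean FPKM from NC to H (log2 fold change 2.18, standard error 0.11, limma adjusted p = 4.41e-07). From H to HL the log2 fold change was -0.996 (standard error 0.11, limma adjusted p = 9.36e-05), just under the fold of a call, and it became a call with a pseudocount of 0.01 (-1.002), after rescaling to TPM (-1.09), without H replicate 3 (-1.12) and without HL replicate 1 (-1.03). HL stayed above NC by 1.18 (standard error 0.11, limma adjusted p = 4.29e-05).

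The ratio of Irs1 to Irs2 was 2.17, 2.17 and 2.37 in NC, 0.907, 0.783 and 1.42 in H, and 4.14, 4.29 and 4.39 in HL. No 2 groups overlapped, H being the lowest and HL the highest (exact permutation test, two-sided, p = 0.1 in each comparison). With the fragments of Gm9747 added the mean ratio was 3.27 in NC, 1.34 in H and 5.60 in HL, so the order was kept. The sum of both adaptors was 15.5 ± 0.414 FPKM in NC, 44.5 ± 0.931 in H and 58.0 ± 2.09 in HL. The groups of this sum did not overlap either (p = 0.1, the smallest the exact permutation test allows).

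**Figure D3:**
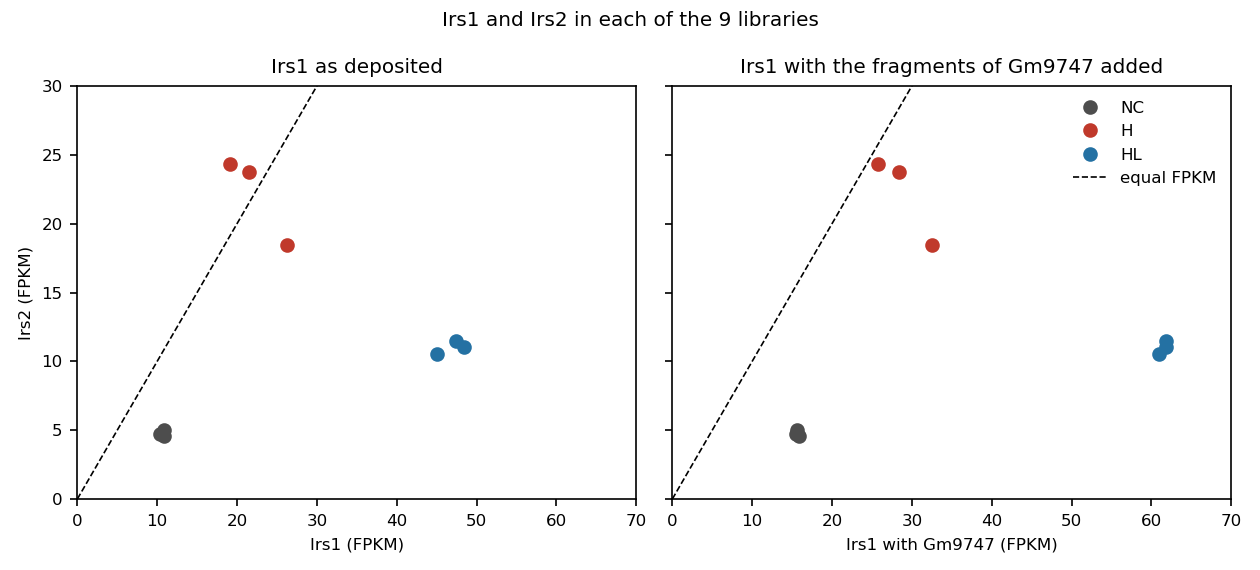
Irs2 (vertical axis, FPKM) against Irs1 (horizontal axis, FPKM) in each of the 9 libraries, with Irs1 as deposited on the left and with the fragments of Gm9747 added on the right; the dashed line marks equal FPKM. The groups form 3 separate clusters in both panels, with Irs2 highest in H and Irs1 highest in HL.

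Over the 8 tested genes, 3 were called higher in H against NC (Igfbp3, Irs1 and Irs2) and none lower, where 10.3% of all tested genes were called higher and 5.75% lower. At the adjusted p alone, as at an unadjusted p under 0.05, 5 were higher and 1 was lower, and 27.1% and 33% of all tested genes passed the former. In HL against H, 3 were called higher (Igfbp2, Igfbp5 and Irs1) and 1 lower (Igfbp3), beside 3.55% and 5.83%. At the adjusted p alone, 3 were higher and 3 lower, beside 26.7% and 21.7%. In HL against NC, which shares its libraries with the other comparisons, 2 were called higher (Irs1 and Irs2) and none lower, beside 6.3% and 2.41%. The adjusted p alone, as the unadjusted p, gave 5 higher and 1 lower, beside 21.6% and 27.2% of all tested genes at the adjusted p. The median log2 fold change of the 8 genes was 0.54 in H against NC, -0.07 in HL against H and 0.72 in HL against NC, while that of all tested genes was -0.04, 0.04 and -0.04. Since the 10 genes were chosen with results known, and Igfbp3 passed the filter through the group where it was high, these counts describe the genes and are no test of the system.

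**Figure D4:**
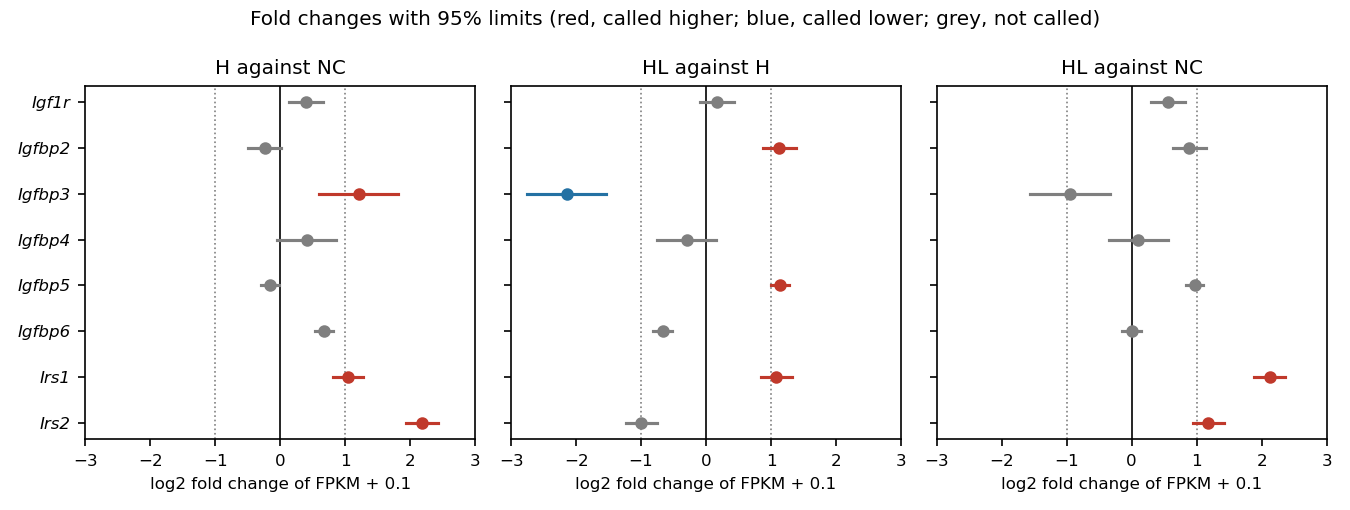
Log2 fold change of the 8 tested genes in H against NC, HL against H and HL against NC, on the log2(FPKM + 0.1) scale, with 95% intervals from limma as bars and dotted lines at the fold of a call. Red marks genes called higher, blue those called lower and grey those not called. Irs2 shows the largest rise in H (2.18), Igfbp3 the largest decrease in HL against H (-2.15), and Irs1 lies above 0 in all 3 comparisons.

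Marker genes also differed between the groups. The summed FPKM of the 10 myoblast markers lay between 488 and 502 in NC, 342 and 498 in H, and 720 and 742 in HL. Des weighed most in this sum, at means of 253, 191 and 369 FPKM in NC, H and HL. Myod1, the myogenic regulator, was called lower in H, from 18.2 ± 0.264 to 8.16 ± 4.35 FPKM (log2 fold change -1.29, limma adjusted p = 0.00590), and was at 13.1 ± 0.680 in HL. Myf5 and Itga7 were higher in H against NC by 0.62 and 0.47 (limma adjusted p = 0.000495 and 0.000334). At the adjusted p alone, 2 of the 8 tested myoblast markers were higher in H and 4 lower, beside 27.1% and 33% of all tested genes. Cdh15 and Chrna1 were the 2 of 8 tested myoblast markers called higher in HL against H (1.27 and 1.13), beside 3.55% of all tested genes. The summed FPKM of 10 differentiated muscle markers ranged over 19.4 to 20.3 in NC and 11.6 to 16.0 in H. In HL it ranged over 39.5 to 44.2. Each of the 5 tested genes of this list, Myog, Acta1, Myl1, Tnnt3 and Ttn, was called higher in HL against H, again beside 3.55%. Of these 5, Myog reached 1 FPKM in the HL libraries only. It was thus tested because of the group where it was high, which limits the weight of its call. Among the untested genes of this list, Mymk had its highest mean in NC, whereas Ckm, Myh3, Tnnc2 and Mymx had theirs in HL. Like the sum of this list, Igfbp2, Igfbp5 and Irs1 were highest in HL. The summed FPKM of 10 macrophage markers ranged over 33.4 to 34.7 for NC, 171 to 248 for H and 50.4 to 53.2 for HL. It came from Csf1r, Cd14 and Cd68, while the defining genes Ptprc and Adgre1 were near 0 in all groups. Csf1r had means of 0.451, 125 and 0.262 FPKM in NC, H and HL, and Cd14 was also highest in H. Cd68 was not, with log2 fold changes of 0.14 in HL against H (limma adjusted p = 0.494) and 1.98 in HL against NC. Like the sum of this list, Igfbp3, Igfbp6 and Irs2 were highest in H. The sum over 7 fibroblast markers ranged over 768 to 781 for NC, 346 to 573 for H and 606 to 622 for HL, and that over 5 adipocyte markers stayed between 7.80 and 11.4. The part of these changes in the values of the IGF system was not tested.

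Among 21 other genes of the IGF axis, 10 were tested. In H against NC 1 was called higher and 1 lower, in HL against H none higher and 1 lower, and in HL against NC none higher and 1 lower, with medians of 0.23, 0.09 and 0.41. The shares of all tested genes called higher and lower were 10.3% and 5.75%, 3.55% and 5.83%, and 6.3% and 2.41%, so that 1 of 10 tested genes is no result about the list. At the adjusted p alone 5 were higher and 1 lower, 5 and 4, and 6 and 1, beside 27.1% and 33%, 26.7% and 21.7%, and 21.6% and 27.2% of all tested genes. At an unadjusted p under 0.05 the limma fit gave 5 higher and 2 lower, 5 and 4, and 6 and 1. The gene lower in both HL comparisons was Stc1, one of the stanniocalcins, secreted inhibitors of the protease PAPP-A, which cleaves IGF binding proteins. Stc1 was at 16.4 ± 0.468 FPKM in NC, 49.1 ± 4.98 in H and 8.17 ± 0.274 in HL, with log2 fold changes of 1.57 in H against NC (limma adjusted p = 4.8e-07), -2.57 in HL against H (limma adjusted p = 1.93e-07) and -1.001 in HL against NC (limma adjusted p = 2.19e-05). Pappa, which encodes that protease, was at 1.63 ± 0.0279 FPKM in NC, 1.22 ± 0.294 in H and 2.44 ± 0.222 in HL, and rose in HL against H by 0.96 (limma adjusted p = 0.00227). Stc2, another inhibitor of PAPP-A, was at 2.50 ± 0.186, 2.80 ± 0.272 and 2.04 ± 0.146 FPKM and differed by -0.43 in HL against H (limma adjusted p = 0.0204).

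H19, a non-coding RNA of the imprinted region that also holds Igf2, was called lower in H, from 401 ± 15.1 to 155 ± 76.9 FPKM (log2 fold change -1.52, limma adjusted p = 0.00497). It was at 275 ± 11.5 in HL, 0.98 above H on the log2 scale (limma adjusted p = 0.0454). The insulin receptor gene Insr was at 6.33 ± 0.247 FPKM in NC, 7.67 ± 1.23 in H and 10.8 ± 0.806 in HL, and rose in HL against H by 0.50 (limma adjusted p = 0.00731). Igf2r, the clearance receptor of IGF2, was at 10.3 ± 0.110, 14.3 ± 0.689 and 14.3 ± 0.660 FPKM, higher in H than in NC by 0.47 (limma adjusted p = 0.000238). The span of Airn overlaps that of Igf2r on the other strand, and Airn was at 3.57 to 10.4 FPKM. Whether their exons share bases, and so whether the level of Igf2r is affected, was not tested. Grb10, an adaptor that restrains the receptor, stayed at or below 0.486 FPKM and was not tested. Igfbp7, chosen after its values were seen, was like Igfbp6 highest in H, at 245 ± 4.52 FPKM in NC, 394 ± 67.2 in H and 233 ± 22.4 in HL. Its span overlaps that of Polr2b on the other strand.

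**Figure D5:**
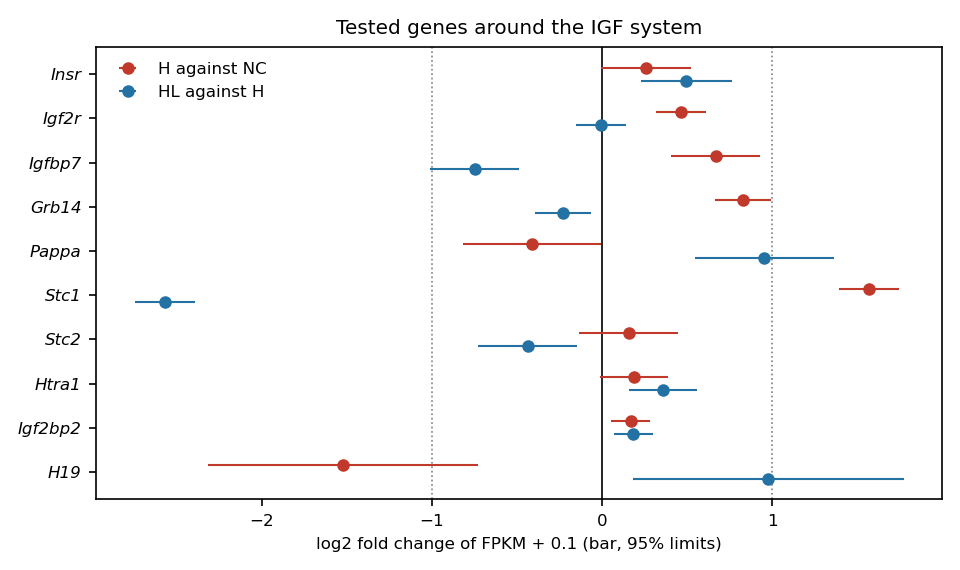
Log2 fold change of the 10 tested genes of the wider IGF axis in H against NC (red) and HL against H (blue), on the log2(FPKM + 0.1) scale, with 95% intervals from limma as bars and dotted lines at the fold of a call. Stc1 lies farthest from 0, at 1.57 in H against NC and -2.57 in HL against H.

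Downstream of the adaptors, all 32 listed genes of the PI3K-AKT-mTOR pathway and the RAS adaptors were tested, and 0 were called in any comparison by limma. Called higher and lower in H against NC were 10.3% and 5.75% of all tested genes. These shares were 3.55% and 5.83% in HL against H, and 6.3% and 2.41% in HL against NC. At the adjusted p alone, 7 of the 32 genes were higher and 7 lower in H against NC. The numbers were 6 and 7 in HL against H, and 7 and 5 in HL against NC. They are to be read beside the shares of all tested genes at the adjusted p given above. At an unadjusted p under 0.05 the numbers were 10 and 7, 8 and 8, and 7 and 5. The medians of the 32 genes were -0.04, 0.03 and -0.03. Chosen after its values were seen, Foxo3, a transcription factor that AKT keeps out of the nucleus, had the largest rise in H, from 10.5 to 16.7 FPKM (log2 fold change 0.66, limma adjusted p = 1.6e-05), and was at 13.2 in HL.

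The genes whose values over the 9 libraries were most like those of Irs2 were Klf7 (Pearson r = 0.997), Cpeb4 (r = 0.995) and Atp6v0e2 (r = 0.995), among 9847 genes with a mean of at least 5 FPKM. For Irs1 they were Rhou (r = 0.997), Atg9b (r = 0.995) and Plcg2 (r = 0.995), and for Igfbp3 Ilf2 (r = 0.984), Rhobtb2 (r = 0.981) and Rfx1 (r = 0.979). Klf7 was at 6.70, 17.7 and 11.5 FPKM in NC, H and HL, and Rhou at 14.3, 22.5 and 37.4. The points share the 3 groups, so these correlations reflect the order of the group means and describe likeness only.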

How the data were processed

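C2C12 mRNA was sequenced on an Illumina HiSeq instrument in 9 libraries, 3 per group. The authors trimmed the reads with fastp, aligned them with HISAT2 (2.1.0) and deposited FPKM per gene computed with StringTie (1.3.3b), and they compared groups with DESeq2. The submitters' processing notes name the build mm39, whereas the methods name the reference of another species. The deposited table's name points to another quantifier, so the tool that gave the deposited FPKM is uncertain. Since the identifiers come from mouse Ensembl and the build is uncertain, coordinates are printed for RefSeq promoters only. Of 54307 identifiers 51482 had a symbol, and 0 columns were left unused. The strand setting is not given in the sources used here.

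FPKM are not counts, so log2(FPKM + 0.1) was tested with limma (3.58.1, with statmod 1.5.0, R 4.3.3) with trend and robust options in 1 fit of 9 libraries, after a filter of 1 FPKM in at least 3 libraries, with Benjamini-Hochberg adjustment over all 13674 tested genes within each comparison. For a call, the adjusted p had to be under 0.05 and the log2 fold change above 1 in absolute value. The fit was first tested on simulated data. Depth was estimated from the low values of 12444 genes with 1 transcript: after 262 to 284 bases were subtracted from the length, 99.57% to 99.79% of 2355 to 2831 low values per library came within 0.1 of a whole number of fragments. Since the share rests on a fitted step, the counts of fragments are estimates. Sums, shares and ratios were compared with SciPy (1.17.1), and plots were made with matplotlib (3.10.9) and pandas (2.3.3) in Python 3.11.15.

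Same-numbered libraries were not paired by any label. The 10 genes are all named. Of the other lists, the called genes with a mean of at least 5 FPKM in the higher group are named, up to 6 per list, with Insr, Igf2r, Pappa, Stc2 and Grb10 whatever their values, and the 3 most alike genes for each of the 3 genes with the widest range of group means. The genes, lists and rule were chosen with earlier results of these data known. The alternatives were other pseudocounts, filters, scalings and variance settings, a fit of the groups compared only, a replicate block, no fold threshold, leaving out each library, and, added after seeing the data, the fragments of Gm9747.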

Additional observations from a re-analysis of the deposited data

How the results depend on the processing

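All FPKM of a library share its total, and the call of a gene near 1 FPKM, such as Igfbp3, rests on the pseudocount and filter. Rescaling to TPM moved the median change over the tested genes in H against NC from -0.04 to 0.15 on the log2 scale. Of the comparisons of single members with each alternative, 473 kept their direction and their call or lack of one, 17 gained a call, 6 lost one and 5 changed sign. The sign changes were Igfbp5 in H against NC after rescaling to TPM (0.0256) and Igfbp6 in HL against NC after rescaling to TPM (0.0950), after median centring (0.0165) and without NC replicate 1 (0.0148) or HL replicate 2 (0.0356), with a range of -0.0301 to 0.0356 over the libraries left out. None of these values passed the test.

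The number of members called higher in H against NC was 3 and became 1 with a pseudocount of 1, 5 without a fold threshold, and 2 with the fragments of Gm9747, with the filter on a mean of 5 FPKM, where Igfbp3 was not tested, and without H replicate 3, through Irs1, and the number called lower was 0 and became 1 without a fold threshold. In HL against H, the number called higher was 3 and became 2 after rescaling to TPM or without H replicate 2, through Irs1, and the number called lower was 1 and became 2 with a pseudocount of 0.01 or TPM, 3 without a fold threshold, 0 with the filter on a mean of 5 FPKM, where Igfbp3 was not tested, and 1 to 2 when single libraries were left out (2 without H replicate 3 or HL replicate 1, through Irs2). In HL against NC, the number called lower was 0 and became 1 with a pseudocount of 0.01 or without a fold threshold, and 0 to 1 when single libraries were left out (1 without NC replicate 3 or HL replicate 2, through Igfbp3), and the number called higher was 2 and became 3 after rescaling to TPM, through Igfbp5, and 5 without a fold threshold. Apart from the fold threshold, the filter and Gm9747, which act by construction, the cause was not tested. At the adjusted p of 0.05 alone, 17 of the 501 values lost significance and 4 gained it. Of these, Igfbp5 in H against NC lost it in 11 of 21 alternatives, with an adjusted p of up to 0.742 (TPM), and the others were Igf1r, Igfbp2, Igfbp3 and Igfbp4 when libraries were left out, and Igfbp4 after rescaling to TPM.

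Over all genes, 1402 were called higher in H against NC, 2711 with no filter, 517 with the filter on a mean of 5 FPKM and 3711 without a fold threshold, and 786 lower became 4513 without a fold threshold. In HL against H, 486 higher became 256 with a pseudocount of 1, 255 with the mean filter and 3652 without a fold threshold, and 797 lower became 1606, 270 and 2967 with no filter, the mean filter and no fold threshold. In HL against NC, 862 higher became 446, 306 and 2957 with a pseudocount of 1, the mean filter and no fold threshold, and 330 lower became 198, 622, 150 and 3717 with a pseudocount of 1, no filter, the mean filter and no fold threshold.

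Libraries with the same replicate number share only a number. Their deviations correlated at 0.06, 0.09 and 0.05 between NC and H, where each library correlated best with its own number, and at -0.04 to 0.03 in the other pairs of groups, where this did not hold. With the replicate block, the number of members called was 3 higher and 0 lower in H against NC, 3 and 1 in HL against H, and 2 and 0 in HL against NC, as without it.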
